A study of Homo sapiens with 12 samples.

Results

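The comparison of GFP-TFAP2β with GFP in KYSE150 cells, a line of human esophageal squamous cell carcinoma, covers 6 of the 12 RNA-seq libraries of the study. The 3 libraries labelled GFP-TFAP2β were set against the 3 labelled GFP, across every gene in the deposited table. The table lists 24302 features, of which 14792 had enough counts to be tested. The study asks which genes respond to TFAP2β and how that depends on its condensation into liquid-like droplets. It therefore also sequenced 2 droplet-deficient forms, GFP-TFAP2β-Mut_IDR3 and GFP-TFAP2β-ΔIDR3, which appear below only beside a few genes. All 4 groups are KYSE150 cells grown in the same medium and share the GFP moiety. The controls carry GFP alone and the other cells GFP joined to wild-type TFAP2β. The labels do not state the vector, its promoter, the time after its introduction, or whether a group is 1 clone, and they do not say that the libraries came from separate cultures. The p-values therefore measure the spread between these libraries only.

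TFAP2B encodes TFAP2β, an AP-2 factor. AP-2 proteins bind DNA as dimers at GC-rich palindromes of the form GCCNNNGGC, and they both activate and repress genes in neural crest, kidney, skin and other epithelia. TFAP2A and TFAP2C are the family members best known from squamous epithelium. An intrinsically disordered region is a protein stretch without a fixed fold, and such stretches can drive proteins to separate into droplets.

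Levels are given as CPM, a gene's counts per unit of its library's scaled total. A gene is said to have risen or fallen where edgeR's quasi-likelihood test gave an adjusted p under 0.05 (Benjamini-Hochberg, over all 14792 genes). The value after ± beside a log2 fold change is an approximate standard error worked back from that test. It is the absolute log2 fold change divided by the square root of the test's F statistic. Of the genes tested, 4102 rose (27.7%) and 4016 fell (27.1%), which is 54.9% in all, and the median log2 fold change over all of them was -0.01. Changes of at least 2-fold were less common, with 618 genes higher (4.18%) and 1039 lower (7.02%), or 536 and 585 with a trend over GC content removed. The libraries of the 2 groups did not overlap for 59.4% of the genes tested. Counts of members below are to be read against these shares, which are large in both directions.

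**Figure D1:**
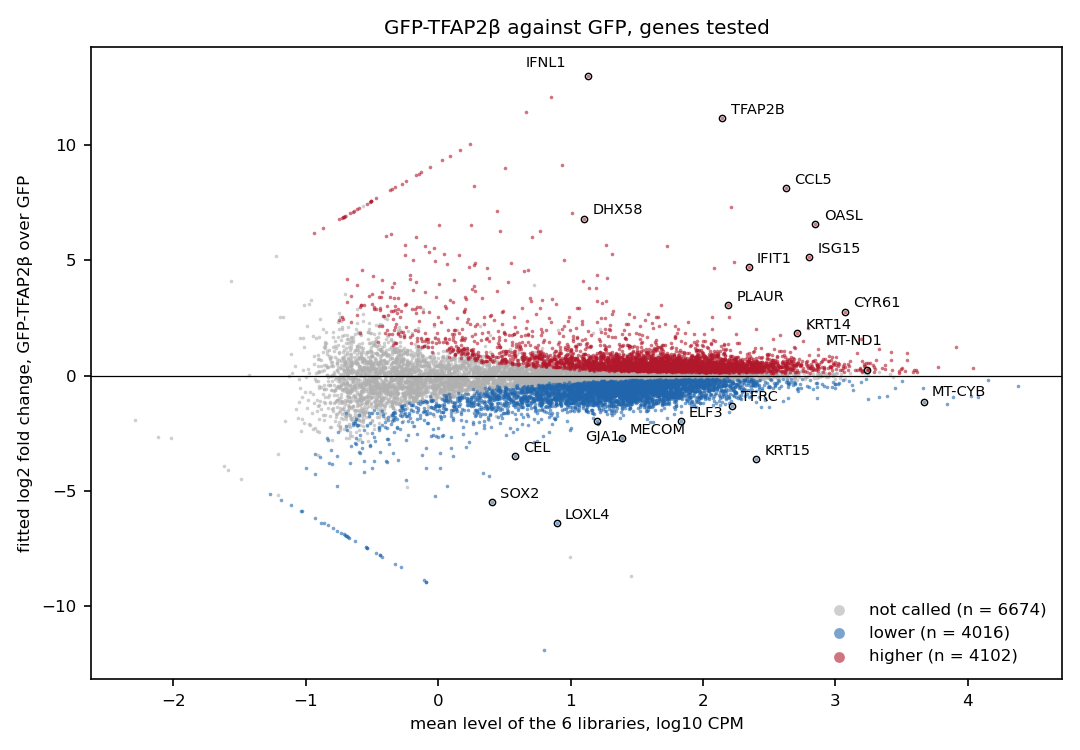
Fitted log2 fold change of GFP-TFAP2β over GFP (vertical axis) against the mean level over the 6 libraries (horizontal axis, log10 CPM), 1 point a gene, coloured by the call. The interferon gene IFNL1, TFAP2B, CCL5 and OASL lie high in the plot and LOXL4 and SOX2 low, other genes, mostly of lower level, lie farther down, and most called genes lie within 1 log2 unit of 0.

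The 6 libraries held 31883826 to 43464956 counts. Mitochondrially encoded mRNAs took 9.92 to 10.7% of the counts in the GFP libraries and 5.38 to 6.09% in the TFAP2β libraries. Across 12724 genes with a reference transcript, the log2 fold change went with GC content (Spearman's rho 0.52, a description across genes, which are not independent). Of 5 equal classes of these genes by GC content, the lowest had 5.11% of genes higher and 68.8% lower, and the highest had 51% higher and 6.17% lower. The part of GC content in the results was not tested; values with its trend removed are given beside a named gene whose call it ends, whose direction it turns or whose fold it moves by over 1.5 times, and beside many lists. The cells' type was checked against its markers. All 10 squamous epithelial markers were tested, and their summed level was 5840 to 6106 CPM with GFP and 7520 to 8817 CPM with TFAP2β. Of these markers 5 rose, 3 fell and 2 were not called. KRT17 and KRT14 rose from means of 775 and 227 CPM to 2362 and 806 CPM. KRT5, the most abundant, fell from 3416 to 2902 CPM.

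TFAP2B itself (chr6:50818723-50847613, GRCh38) stood at 0, 0.279 and 0.0924 CPM in the GFP libraries. With GFP-TFAP2β it stood at 285, 232 and 323 CPM, higher by 11.17 ± 0.25 on the log2 scale (adjusted p = 6.4e-14). The GFP libraries were at or near 0 and the groups were far apart, in the direction that the construct names give. Counts at this gene do not tell RNA of the introduced copy from that of the cell's own. Of 11 tested genes of the AP-2 family and its cofactors, 7 rose, 1 fell and 3 were not called. TFAP2A rose from 61.2, 59.4 and 58.5 CPM to 126, 132 and 125 CPM, by 1.09 ± 0.06 (adjusted p = 4.51e-09). TFAP2C rose by less, from 34.4 ± 1.83 to 48.1 ± 4.97 CPM (SD, n = 3 libraries a group, as for every mean here). CITED2 and CITED4, coactivators that join AP-2 proteins to histone acetyltransferases, rose by 1.49 ± 0.05 and 1.09 ± 0.23. The 1 member that fell was YEATS4, by -0.37, and it was at 0.08 and not called with the GC trend removed (adjusted p = 0.39). The list's median was 0.37, and 0.13 with the GC trend removed.

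The promoters of genes that moved were read for short motifs from RefSeq's GRCh38.p14 table (300 bases, from 250 before the start of transcription to 50 after it). Of the 14792 genes tested, 10258 matched an entry. The AP-2 palindrome GCCNNNGGC, searched on both strands, was in 27.3% of the 399 matched promoters of genes at least 2-fold higher and in 29.8% of the 689 of genes at least 2-fold lower. It was in 31.8% of the promoters of genes not called and in 32% of all tested. Over promoters of any GC content, the share in neither direction was thus above that of all genes tested. Among promoters of middle GC content (62.7 to 67.7%) the palindrome was in 28.8% (17 of 59) of those at least 2-fold higher. There it was in 33.1% (44 of 133) of those at least 2-fold lower and 29.1% of all tested, so the share was higher among the falls. The palindrome was in 23% of the 27305 promoters of the whole table. The interferon response motif, TTTC and TTTC with any 2 bases between them, was in 9.77% of the promoters of genes at least 2-fold higher, 2.76% of those at least 2-fold lower and 2.81% of all tested. The NF-kB motif was in 15.3%, 5.81% and 6.63% of the same classes, and the TATA box TATAAA in 19.3%, 6.53% and 5.85%. The AP-1 motif TGANTCA was in 8.77%, 5.52% and 4.55%, the STAT site GAS, TTC and GAA with any 3 bases between them, in 7.27%, 8.71% and 6.24%, and the CArG box of serum response factor in 2.26%, 0.581% and 1.05%. Among the 2199 promoters of middle GC content the AP-1 motif was in 5.08% (3 of 59), 4.51% (6 of 133) and 4.05%. The interferon response motif was there in 8.47% (5 of 59), 1.50% (2 of 133) and 2.50%, so these shares rest on few promoters. The motifs can overlap in a promoter, the classes are those called without a GC correction, and no test was made of these shares. Among the interferon-stimulated genes listed here, 30 of 41 matched promoters (73.2%) held this motif.

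The following stretches show the interferon response motif in 6 genes that rose, all of the interferon system or induced by it. Each is on the gene's strand, with the motif or its reverse complement in capitals and 20 bases on each side, from GRCh38.p14. They lie at chr19:39296173-39296222 (IFNL1, plus strand), chr4:88456974-88457023 (HERC5, plus), chr1:1013364-1013413 (ISG15, plus), chr10:89392487-89392536 (IFIT1, plus), chr10:89327821-89327870 (IFIT3, plus) and chr4:76023689-76023738 (CXCL10, minus).
IFNL1: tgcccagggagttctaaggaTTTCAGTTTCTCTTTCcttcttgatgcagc
HERC5: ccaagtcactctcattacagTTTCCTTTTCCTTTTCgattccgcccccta
ISG15: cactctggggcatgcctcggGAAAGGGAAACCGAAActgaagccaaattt
IFIT1: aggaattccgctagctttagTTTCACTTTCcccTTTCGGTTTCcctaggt
IFIT3: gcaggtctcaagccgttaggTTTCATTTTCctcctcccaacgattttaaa
CXCL10: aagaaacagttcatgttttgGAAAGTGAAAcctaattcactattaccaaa
IFNL1, HERC5 and ISG15 hold 2 overlapping matches in these stretches, and IFIT1 holds 2 that are 3 bases apart.

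The NF-kB motif is shown in the same way for 4 genes that rose: TNFAIP3 (chr6:137867184-137867233, plus), NFKBIA (chr14:35404801-35404850, minus), IL6 (chr7:22727107-22727156, plus) and IRF1 (chr5:132490794-132490843, minus).
TNFAIP3: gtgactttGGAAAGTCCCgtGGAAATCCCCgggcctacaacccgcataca
NFKBIA: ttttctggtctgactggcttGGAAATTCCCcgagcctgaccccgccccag
IL6: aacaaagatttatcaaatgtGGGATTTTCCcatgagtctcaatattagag
IRF1: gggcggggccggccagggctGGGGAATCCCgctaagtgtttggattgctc
The AP-2 palindrome is shown for 4 genes that fell and 2 that rose, which hold it alike. LOXL4 (chr10:98268265-98268313, minus), TP73 (chr1:3652422-3652470, plus), SOX2 (chr3:181711774-181711822, plus) and JAG2 (chr14:105168852-105168900, minus) fell, and CITED2 (chr6:139374768-139374816, minus) and GATA3 (chr10:8045090-8045138, plus) rose.
LOXL4: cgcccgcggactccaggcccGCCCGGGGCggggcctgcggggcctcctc
TP73: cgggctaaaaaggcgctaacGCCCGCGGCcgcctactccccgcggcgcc
SOX2: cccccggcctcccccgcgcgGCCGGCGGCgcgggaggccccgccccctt
JAG2: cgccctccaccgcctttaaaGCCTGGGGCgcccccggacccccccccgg
CITED2: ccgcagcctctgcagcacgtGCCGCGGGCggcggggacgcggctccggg
GATA3: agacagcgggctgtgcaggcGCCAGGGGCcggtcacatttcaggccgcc
A match is a run of letters and was not shown to bind a factor here. MECOM, NRIP1 and CEL, which also fell, hold none of these motifs in the window, which says only that the letters are not in it.

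The interferon system held some of the largest rises. Cells that sense viral nucleic acid release type I interferons such as IFN-β and type III interferons such as IFN-λ, which act through receptors, JAK kinases and STAT factors to switch on antiviral genes. IFNL1, a type III interferon gene (chr19:39296325-39298673), had no count in the 3 GFP libraries and stood at 29, 23.5 and 28.9 CPM with TFAP2β. That was at least 994-fold higher, taking 3 counts over the GFP group as the floor. IFNL2 had no count with GFP and stood at 15.2, 14.3 and 13.3 CPM with TFAP2β, at least 524-fold higher. IFNL3 had 3 counts in all with GFP and 1933 with TFAP2β, a ratio of 636 with a 95% counting interval of 217 to 3085. The IFNL2 and IFNL3 genes are nearly identical, so reads can have been split between them. IFNB1, the IFN-β gene, had no count with GFP and 0.826, 0.414 and 0.604 CPM with TFAP2β, at least 22.5-fold higher. All 4 tested interferon genes rose, and the other 6 listed had too few counts to be tested.

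Receptors and signal transducers moved far less. Of 15 tested interferon receptors, JAKs and STATs, 5 rose, 4 fell and 6 were not called, with a median log2 fold change of 0.06 that was -0.04 with the GC trend removed. The type I receptor subunit IFNAR1 fell from 36.3 ± 1.83 to 22.2 ± 1.69 CPM. The shared subunit of the type III receptor, IL10RB, rose from 37.1 ± 1.95 to 49 ± 2.1 CPM. IFNLR1, the other subunit of that receptor, had too few counts to be tested. STAT2 rose by 0.84 ± 0.08 and STAT3 by 0.74 ± 0.05.

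Among the 6 tested interferon regulatory factors all rose, with a median of 0.88. IRF1, which activates interferon and antigen presentation genes, went from 53, 55.4 and 52.3 CPM to 158, 144 and 157 CPM (1.52 ± 0.06, adjusted p = 5.94e-11). The 3 TFAP2β libraries were all far above the GFP libraries. IRF3, the kinase-activated factor of the sensor pathway, rose by 0.51 ± 0.08. IRF9, the DNA-binding partner of STAT2, stood at 8.29, 2.81 and 12.4 CPM with TFAP2β against 2.26, 2.51 and 2.43 CPM with GFP. Its TFAP2β libraries were spread widely, with replicate 2 near the GFP level, and without TFAP2β replicate 3 its adjusted p was 0.0566.

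The nucleic acid sensors and adaptors split, with 7 of 17 higher, 6 lower and 4 not called. The 3 RIG-I-like receptors, which detect double-stranded RNA in the cytosol, all rose. DHX58 (LGP2) went from 0.145, 0.341 and 0.185 CPM to 24.4, 24 and 26.6 CPM (6.81 ± 0.36, adjusted p = 8.91e-09). IFIH1 (MDA5) went from 13.7, 11.4 and 13.8 CPM to 68.7, 76.7 and 80.8 CPM (2.54 ± 0.10), and DDX58 (RIG-I) rose by 2.35 ± 0.16. The groups did not overlap for any of the 3. The adaptors TICAM1 (TRIF) and TMEM173 (STING) rose by 1.31 ± 0.10 and 1.28 ± 0.12. The RNA-activated kinase EIF2AK2 (PKR), the DNA sensor IFI16, the kinase TBK1 and the endosomal receptor TLR3 fell, TBK1 from 31 ± 2.63 to 15.5 ± 3.15 CPM and IFI16 from 73.8 ± 7.83 to 32.5 ± 7.01 CPM. With the GC trend removed the falls of EIF2AK2, TBK1 and TLR3 were -0.22, -0.41 and -0.85, TLR3 losing its call when the replicate block was added (adjusted p = 0.0716), and the list's median of 0.10 was 0.01.

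Many antiviral effectors rose, though unevenly. Of the 5 tested genes of the OAS list 4 rose. OASL, an OAS-like protein without synthetase activity (chr12:121019111-121039242), went from 13.6, 15.4 and 14.9 CPM to 1424, 1361 and 1406 CPM, a log2 fold change of 6.58 ± 0.09 (adjusted p = 2.27e-16). OAS2 rose by 5.25 ± 0.51, OAS1 by 2.66 ± 0.11 and OAS3 by 1.39 ± 0.05. These 3 enzymes make a nucleotide messenger of the antiviral response. Among 9 genes of the IFIT and IFITM families with RSAD2, 5 rose and 2 fell. IFIT1, IFIT2 and IFIT3, which bind viral RNA, rose by 4.71 ± 0.08, 4.93 ± 0.13 and 4.65 ± 0.14. IFIT1 stood at 16.3, 15.1 and 17.5 CPM with GFP and at 391, 471 and 417 CPM with TFAP2β. RSAD2 (viperin) went from 1.65, 2.05 and 2.38 CPM to 303, 355 and 308 CPM (7.30 ± 0.16). In contrast, IFIT5 was not called at 15.2 ± 1.02 and 16.3 ± 3.23 CPM, although it rose with the GC trend removed (0.77, adjusted p = 0.000208). The membrane proteins IFITM1 and IFITM2 fell by -0.47 and -0.27 while IFITM3 rose by 0.53.

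Of 40 other interferon-stimulated effectors, 27 rose, 2 fell and 11 were not called, with a median of 0.97. ISG15, a ubiquitin-like protein, stood at 36.4, 33.2 and 35.5 CPM with GFP and 1290, 1155 and 1266 CPM with TFAP2β (5.14 ± 0.07, adjusted p = 3.93e-16). HERC5, the ligase that attaches ISG15, rose from 0.464, 0.838 and 0.855 CPM to 32.5, 39.9 and 37.1 CPM (5.65 ± 0.32), and USP18, which removes it, by 1.14. IFI6, ISG20, IFI44 and the zinc finger antiviral protein ZC3HAV1 rose by 4.24 ± 0.23, 3.81 ± 0.14, 2.49 ± 0.15 and 2.54 ± 0.07, IFI44 by 3.10 with the GC trend removed. The members that fell were TRIM22 (-1.14 ± 0.28) and TRIM5 (-0.32), restriction factors of retroviruses. The call of TRIM5 was lost with the GC trend removed (adjusted p = 0.725) and without any 1 of GFP replicates 2 and 3 or TFAP2β replicates 1 and 3. MX1, among the best known interferon-induced genes, stood at 2.32, 2.23 and 1.22 CPM with GFP and 2.31, 3.29 and 3.14 CPM with TFAP2β. Its libraries overlapped and it was not called (0.60 ± 0.28, adjusted p = 0.0787), though limma-voom put it past the threshold (adjusted p = 0.0369). NMI, SP100 and PARP9 were not called, at -0.03, -0.03 and -0.07, but rose with the GC trend removed, by 0.50, 0.31 and 0.19. Of 6 guanylate-binding proteins, GBP5 and GBP4 rose from low levels (means of 0.108 and 0.759 CPM to 1.91 and 2.27 CPM). GBP4's call was lost without any 1 of GFP replicates 1 and 2 or TFAP2β replicates 1 and 2, and GBP5's with DESeq2 (adjusted p = 0.184). GBP5 rose by 3.99, and by 4.58 with the GC trend removed. GBP6 fell from 10.1, 12.1 and 10.1 CPM to 1.68, 1.89 and 1.67 CPM (-2.62 ± 0.18).

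**Figure D2:**
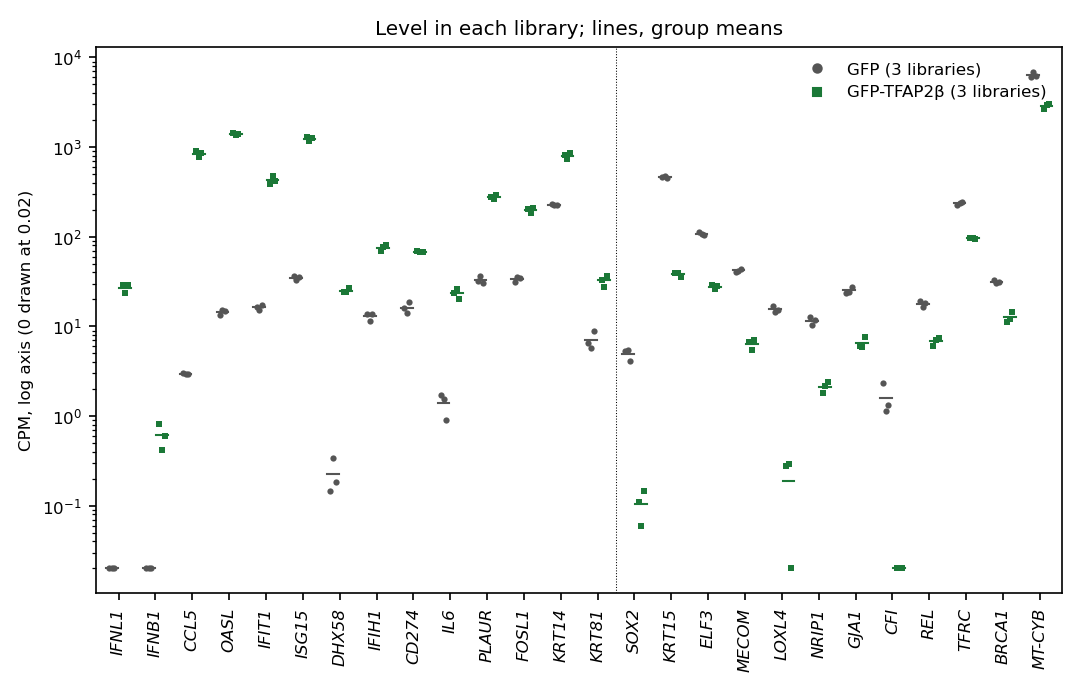
Level of 26 genes in each of the 3 GFP libraries (circles) and 3 GFP-TFAP2β libraries (squares), in CPM on a log axis with 0 drawn at 0.02, lines marking group means. The libraries of the 2 groups do not overlap for any gene shown, those left of the dotted line being higher with TFAP2β and those right of it lower.

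Antigen presentation by MHC class I, which shows peptides to cytotoxic T cells, moved mostly upward. Of 19 tested genes, 16 rose, 2 fell and 1 was not called. The light chain B2M went from 280, 298 and 305 CPM to 839, 969 and 708 CPM (1.51 ± 0.09, adjusted p = 4.13e-09, and 2.09 with the GC trend removed). The heavy chain HLA-C rose by 1.09 ± 0.07, and the reads of polymorphic, similar heavy chain genes can be assigned to each other. The peptide transporter TAP1 rose by 1.31 ± 0.07 and the loading factor TAPBP by 1.03 ± 0.07. The immunoproteasome subunit PSMB8 and the trimming peptidase ERAP2 fell, each by -0.48. ERAP2 was at -0.01 and not called with the GC trend removed (adjusted p = 0.936), and the list's median of 0.62 became 0.38. Of 15 tested immune surface ligands, 9 rose and none fell; none of the other 6 was called, and with the GC trend removed 10 rose and 1 fell. CD274, which encodes the checkpoint ligand PD-L1, went from 15.9, 14.3 and 18.6 CPM to 68.6, 67 and 67.6 CPM (2.05 ± 0.09, adjusted p = 2.83e-10). PDCD1LG2 (PD-L2), the adhesion molecule ICAM1 and NECTIN2, a ligand of the receptors TIGIT and DNAM-1, rose by 3.66 ± 0.32, 1.33 ± 0.08 and 1.30 ± 0.08.

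Chemokines recruit leukocytes, and 10 of 14 tested rose, none fell and 4 were not called. CCL5 (chr17:35871491-35880793), which attracts T cells, stood at 3.04, 2.92 and 2.98 CPM with GFP and 899, 778 and 861 CPM with TFAP2β, a log2 fold change of 8.15 ± 0.12 (adjusted p = 6.11e-16). CXCL10 and CXCL11, ligands of the receptor CXCR3, rose from means of 0.0708 and 0.123 CPM to 5.75 and 3.32 CPM. CCL3 rose from 4 counts in all to 621, and its near-identical copy CCL3L1 can share its reads, as CCL4 and CCL4L2 can share theirs. Among the CXCR2 ligands, CXCL8 rose by 2.77 ± 0.66 but stayed at 1.21, 1.84 and 1.4 CPM. The rises of CXCL10, CXCL11 and CXCL8 were 6.91, 5.37 and 3.46 with the GC trend removed. The list's median was 3.73, or 3.43 with the 3 genes that had no count with GFP put at their floor, and 4.41 with the GC trend removed.

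Of 21 interleukins and other cytokines, 17 rose, 2 fell and 2 were not called (median 1.01, and 1.49 with the GC trend removed). IL6, an activator of STAT3, went from 1.71, 1.55 and 0.901 CPM to 23.7, 26.5 and 20.3 CPM (4.09 ± 0.27, adjusted p = 1.42e-08). IL32, IL24 and IL11 rose by 3.78 ± 0.17, 3.65 ± 0.63 and 2.03 ± 0.18. The 2 that fell were IL1B, from 66.2, 73.9 and 74.7 CPM to 36.3, 37.7 and 29.4 CPM (-1.05 ± 0.11), and the macrophage growth factor CSF1 (-0.61 ± 0.12). IL1A, which signals through the same receptor as IL1B, rose by 0.69 ± 0.10 (1.30 with the GC trend removed), so the pair moved in opposite directions.

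Of 24 subunits and feedback genes of NF-kB, the inflammatory transcription factor, 16 rose, 3 fell and 5 were not called, with a median of 0.65. TNFAIP3 (A20) and NFKBIA (IκBα), inhibitors that NF-kB itself induces, rose from 3.45, 3.07 and 4.02 CPM to 35.4, 34.7 and 30.4 CPM and from 17.2, 18.3 and 18.2 CPM to 85.6, 85.6 and 84.4 CPM. Their log2 fold changes were 3.25 ± 0.15 and 2.25 ± 0.07, and neither gene's groups overlapped. The subunits RELB, NFKB2, RELA and NFKB1 rose by 1.71 ± 0.10, 1.20, 0.84 and 0.52, while REL (c-Rel) fell from 17.9 ± 1.44 to 6.87 ± 0.699 CPM (-1.38 ± 0.15, and -0.76 with the GC trend removed). CHUK, a kinase of the pathway, and BIRC2 fell by -0.78 and -0.42. With the GC trend removed CHUK was not called and BIRC2 rose by 0.24 (adjusted p = 0.0192). Of 8 SOCS proteins, which damp cytokine receptors, 3 rose and 2 fell. SOCS1 rose by 3.75 ± 0.36 and SOCS3 by 1.98 ± 0.12. SOCS4 and SOCS5 fell by -1.12 ± 0.15 and -1.01 ± 0.14, and by -0.44 and -0.34 with the GC trend removed. Complement and acute-phase genes also split, 6 of 15 higher and 7 lower. CFB, an activator of the alternative pathway, and C3 rose from means of 0.166 and 2.03 CPM to 10 and 6.99 CPM. The inhibitor CD46 fell by -0.93 ± 0.09 (-0.28 with the GC trend removed), and CFI fell from 2.35, 1.15 and 1.34 CPM to no count, at least 59.9-fold lower. CFB had counts in only 1 GFP library, and DESeq2 gave it an adjusted p of 0.0574.

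**Figure D3:**
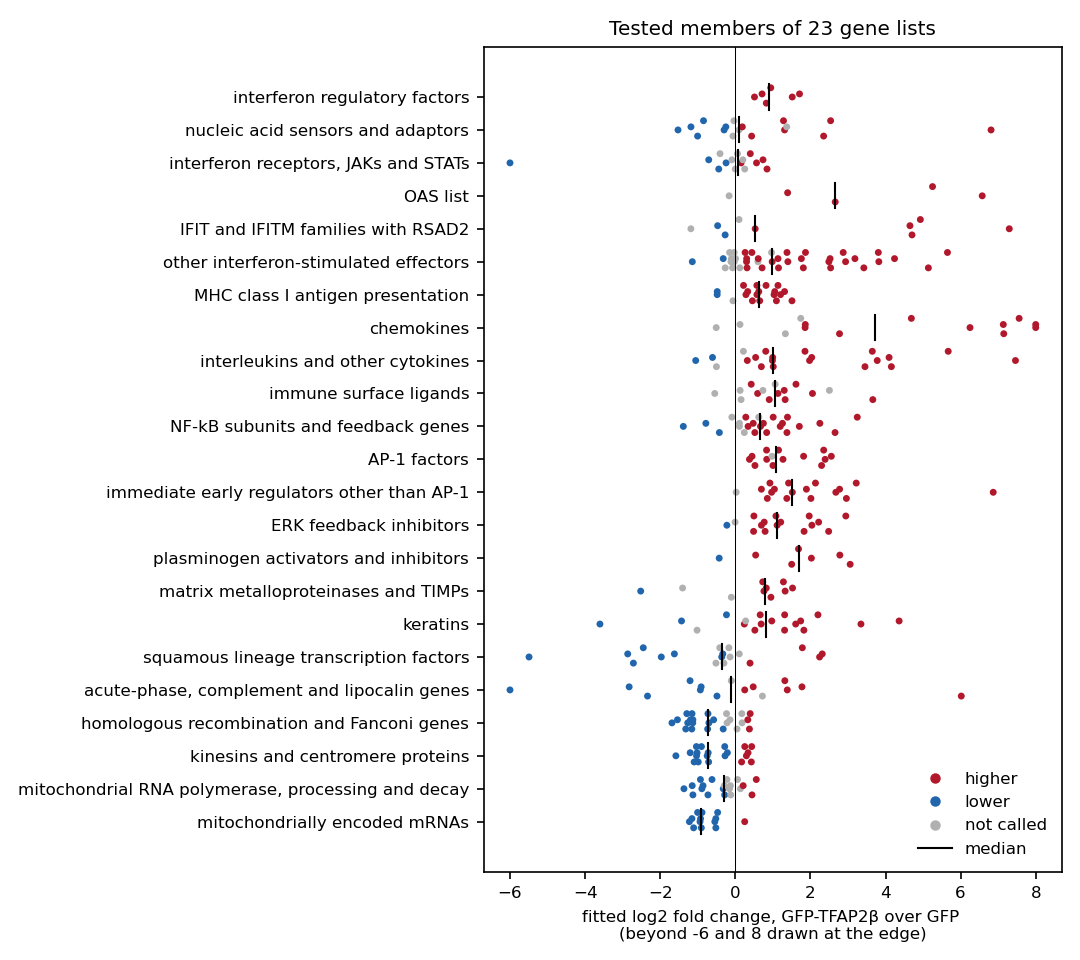
Fitted log2 fold change of GFP-TFAP2β over GFP for every tested member of 23 gene lists (1 point a gene, values beyond -6 and 8 at the edge), coloured by the call, with the list's median as a bar. Chemokines and OAS genes lie farthest to the right, receptors and sensors straddle 0, and mitochondrially encoded mRNAs lie to the left except MT-ND1.

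Most AP-1 factors, other immediate early genes and ERK feedback inhibitors rose. AP-1 is a dimer of FOS and JUN family proteins that growth factors and stress induce within minutes. Of 14 tested AP-1 factors 13 rose and none fell (median 1.08), BATF2 alone not being called. FOSL1, the FOS family member prominent in carcinoma, went from 31.1, 35.6 and 34.5 CPM to 202, 183 and 210 CPM (2.56 ± 0.07, adjusted p = 6.47e-13). JUN, FOS, MAFF and ATF3 rose by 2.39, 2.35, 2.30 and 1.82. Of 17 other immediate early genes 16 rose and none fell (median 1.52), with IER5L not called; IER5L fell by 0.30 with the GC trend removed. CYR61, a matrix protein that serum and YAP induce, went from 303, 307 and 292 CPM to 2100, 2048 and 2036 CPM (2.78 ± 0.04, adjusted p = 7.49e-16). CTGF, the related matrix protein, EGR1, a zinc finger factor, and ZFP36, which degrades cytokine mRNAs, rose by 3.22, 2.68 and 2.13 ± 0.07.

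The feedback inhibitors of ERK, which that kinase induces and which then switch it off, rose in 14 of 16 cases (median 1.10). DUSP5 went from 5.59, 5.12 and 4.83 CPM to 29.6, 28.7 and 28.7 CPM (2.49 ± 0.11), and DUSP4 and DUSP6 rose by 2.04 ± 0.13 and 1.97 ± 0.15. SPRY4 and SPRY2 rose by 2.94 ± 0.24 and 2.22 ± 0.15. The 1 member that fell, SPRED1, did so by -0.22 ± 0.08. It was at 0.39 with the GC trend removed (adjusted p = 0.000876), and its call was lost in 7 other fits. Upstream, 5 of 9 tested ERBB receptors and EGF-like ligands rose, 2 fell and 2 were not called. The EGF receptor ligands HBEGF, AREG and TGFA rose by 2.02 ± 0.16, 1.83 ± 0.11 and 1.01 ± 0.07. Their receptor EGFR stood at 334, 344 and 334 CPM with GFP and 295, 285 and 333 CPM with TFAP2β. EGFR was called lower (-0.15 ± 0.05, adjusted p = 0.0282), a call lost without any 1 of 5 of the 6 libraries. NRG1, a ligand of ERBB3, fell by -0.34 ± 0.06.

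Keratins, the intermediate filament proteins of epithelium, rose in 13 of 18 cases and fell in 3, with a median of 0.83 that became 0.55 with the GC trend removed. KRT15, a keratin of resting basal cells (chr17:41513743-41522529), stood at 470, 472 and 453 CPM with GFP and 39.9, 39 and 35.7 CPM with TFAP2β (-3.60 ± 0.07, adjusted p = 5.41e-15). KRT14, the basal keratin that pairs with KRT5, rose from 230, 226 and 226 CPM to 822, 731 and 865 CPM (1.83 ± 0.06), while KRT5 fell slightly, from 3416 ± 70.3 to 2902 ± 214 CPM. The keratins of wounded and activated epithelium, KRT16, KRT17 and KRT6A, rose by 1.74 ± 0.10, 1.61 ± 0.06 and 0.97 ± 0.07. KRT6A, KRT6B and KRT6C are similar enough to share reads. The hair keratin KRT81 rose from 7.06 ± 1.58 to 32.6 ± 4.58 CPM, and the simple keratins KRT8 and KRT18 rose by 0.66 ± 0.06 and 0.69 ± 0.05. KRT13, a keratin of the upper layers of the esophagus, fell by -1.43 ± 0.26. Cornified envelope and S100 genes rose in 10 of 19 cases and 1 fell (FLG, -0.85, a call lost without any 1 of 5 of the 6 libraries). SPRR1B and TGM1, a building block and a crosslinker of that envelope, rose by 4.79 ± 0.85 and 1.78 ± 0.25.

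In a list of squamous lineage transcription factors, 8 of 18 tested genes fell (44.4%) and 4 rose (22.2%), with a median of -0.35. With the GC trend removed 9 fell and 3 rose. The list also takes in MECOM and NRIP1, and it was chosen with earlier results of these data known. SOX2 (chr3:181711924-181714436), a master factor of the esophagus that is often amplified in squamous carcinoma, stood at 5.36, 5.43 and 4.14 CPM with GFP. With TFAP2β it stood at 0.11, 0.0592 and 0.145 CPM (-5.49 ± 0.36, adjusted p = 1.38e-08), so that its level came near 0. TP73, a relative of p53, fell from 9.35 ± 0.872 to 1.28 ± 0.327 CPM and MECOM, a zinc finger factor, from 40.6, 42 and 43.7 CPM to 6.69, 5.48 and 7.05 CPM (-2.71 ± 0.13). The nuclear receptor corepressor NRIP1 and the ETS factors ELF3 and EHF fell by -2.45 ± 0.17, -1.97 ± 0.06 and -1.62 ± 0.26, NRIP1 by -1.83 with the GC trend removed. ELF3 went from 113, 106 and 104 CPM to 28.6, 25.8 and 28.1 CPM. TP63, which maintains basal squamous cells, fell by only -0.36 ± 0.05 and was not called with the GC trend removed (-0.02, adjusted p = 0.655). GATA3, OVOL1 and GRHL3, factors of epidermal differentiation, rose by 2.24 ± 0.09, 2.32 ± 0.27 and 1.78 ± 0.30, GATA3 from 8.69, 10.1 and 8.78 CPM to 43.6, 41.6 and 45.2 CPM. Of the 18 factors, 3 were at least 2-fold higher, 6 were at least 2-fold lower and 6 were not called.

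The urokinase system, which activates plasmin at the cell surface, rose in 6 of its 7 tested genes (median 1.68). The receptor PLAUR (chr19:43646095-43670547) went from 32.2, 36.5 and 30.7 CPM to 274, 265 and 289 CPM (3.06 ± 0.07, adjusted p = 1.58e-13). Its ligand PLAU rose by 1.50 ± 0.07 and the inhibitors SERPINE2 and SERPINB2 by 1.68 ± 0.14 and 2.78 ± 0.40. PLAT, the tissue-type activator, fell by -0.43 ± 0.08. Activators and inhibitors of urokinase therefore rose together. Among 10 matrix metalloproteinases and their inhibitors 7 rose, with TIMP1, TIMP2 and MMP2 higher by 1.33 ± 0.06, 1.28 ± 0.06 and 0.95 ± 0.09, and MMP13 fell by -2.52 ± 0.32 (-1.89 with the GC trend removed). Their median of 0.79 was 0.46 with the GC trend removed.

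Among adhesion genes, 6 of 19 integrins and laminins rose (31.6%) and 7 fell (36.8%), beside 27.7% and 27.1% of all genes tested. With the GC trend removed 7 rose and 6 fell. ITGA5, which with ITGB1 forms the fibronectin receptor, rose from 38.2 ± 0.753 to 133 ± 19.4 CPM (1.80 ± 0.09). ITGB1 fell by -0.51 but was at 0.01 with the GC trend removed (adjusted p = 0.936). LAMB3, a subunit of laminin-332, the laminin of epithelial basement membrane, rose by 1.22 ± 0.07. ITGAV and ITGB6, which together bind latent TGF-β, fell by -0.95 ± 0.09 and -1.65 ± 0.22, ITGAV by -0.30 with the GC trend removed. Of 15 claudins and tight junction genes 9 rose and none fell (8 and 1 with the GC trend removed), led by CLDN4, which went from 252, 246 and 230 CPM to 1040, 883 and 1092 CPM (2.05 ± 0.07). The adherens junction genes CDH1 and JUP rose by 1.03 and 1.20. The gap junction protein GJA1 (connexin 43) fell from 23.6, 24.4 and 27.7 CPM to 5.98, 5.95 and 7.61 CPM (-1.95 ± 0.11).

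LOXL4 (chr10:98247690-98268250), a lysyl oxidase that crosslinks collagen, had the largest fall among genes with at least 5 CPM in 1 group, non-overlapping libraries and an established name. It stood at 16.9, 14.5 and 15.2 CPM with GFP and 0.275, 0.296 and 0 CPM with TFAP2β (-6.39 ± 0.38, adjusted p = 5.04e-09). Its relative LOX was not called, at 0.40, and LOXL1 rose by 0.69. Other large falls by the same rule were those of CEL, a lipase (-3.49 ± 0.23), KITLG, the ligand of the receptor KIT (-2.27 ± 0.16), BCHE, a cholinesterase (-2.26 ± 0.21), and LRG1, a secreted glycoprotein (-2.34 ± 0.12). With the GC trend removed KITLG and BCHE fell by -1.59 and -1.61. Among abundant genes, with at least 100 CPM in the GFP libraries, the transferrin receptor TFRC went from 227, 236 and 246 CPM to 95.7, 97.5 and 95 CPM (-1.30 ± 0.05, adjusted p = 9.43e-11). The RNA helicase DDX5, the methionine enzyme MAT2A and glutamine synthetase GLUL fell by -1.34 ± 0.05, -1.27 ± 0.06 and -1.22 ± 0.05. At the other end, RAET1L, a ligand of the receptor NKG2D, and SPOCK1, a matrix proteoglycan, rose by 5.03 ± 0.37 and 6.26 ± 0.41 from means under 1 CPM.

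Genes of DNA repair and mitosis fell more often than they rose. Of 24 genes of homologous recombination and the Fanconi pathway, 15 fell, 3 rose and 6 were not called, with a median of -0.72 that became -0.46 with the GC trend removed. The damage-sensing kinase ATR went from 36, 38.6 and 39.1 CPM to 11.4, 11.1 and 12.8 CPM (-1.69 ± 0.14, adjusted p = 2e-07), and ATM and BRCA1 fell by -1.54 ± 0.18 and -1.32 ± 0.10, ATM by -0.94 with the GC trend removed. Among the 3 that rose, FANCA and FANCG did so by 0.40 and 0.38, and both were not called with the GC trend removed. Of 20 kinesins and centromere proteins, 14 fell and 6 rose. Their median of -0.72 became -0.26 with the GC trend removed, when 10 fell and 2 rose. KIF15, a spindle motor, fell by -1.58 ± 0.21, and the kinetochore protein CENPF went from 245, 193 and 221 CPM to 71, 81 and 134 CPM. The motors KIF20A and KIFC1 rose by 0.34 ± 0.06 and 0.44 ± 0.07, but KIFC1 was not called with the GC trend removed (0.10, adjusted p = 0.22). Of 19 cyclins, CDKs and their inhibitors, 11 rose and 5 fell, or 13 and 1 with the GC trend removed. The CDK inhibitor CDKN1A (p21) went from 29.2, 29.9 and 24.8 CPM to 68.5, 65.5 and 77.7 CPM (1.34 ± 0.09), and CCND3 rose by 1.00 ± 0.07. CCNE1 rose by 1.00 ± 0.15 and CCNE2 fell by -1.09 ± 0.19 (-0.42 with the GC trend removed), so the 2 E-type cyclins moved apart.

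Of the 13 mRNAs transcribed from mitochondrial DNA 12 fell, with a median of -0.91, or -0.61 with the GC trend removed. MT-CO3, a subunit of complex IV, stood at 9446, 10259 and 9731 CPM with GFP and 3986, 4479 and 4150 CPM with TFAP2β (-1.22 ± 0.07, adjusted p = 2.63e-09). MT-CYB of complex III fell from 6085, 6909 and 6232 CPM to 2648, 2972 and 3014 CPM (-1.15 ± 0.06), and MT-CO1 by -0.47 ± 0.04. MT-ND1, of complex I, rose from 1572, 1678 and 1503 CPM to 1735, 1917 and 2001 CPM (0.25 ± 0.07, adjusted p = 0.00517). In bulk RNA, fewer mitochondria in a cell and fewer transcripts in a mitochondrion cannot be told apart. Of 20 nuclear genes for mitochondrial RNA synthesis, processing and decay, 10 fell and 3 rose. LRPPRC, which stabilises mitochondrial mRNAs, FASTKD1 and the packaging factor TFAM fell by -1.13 ± 0.09, -1.37 ± 0.09 and -0.89 ± 0.06, the last 2 by -0.70 and -0.25 with the GC trend removed. The RNA polymerase POLRMT rose by 0.44 ± 0.07. POLG, which copies mitochondrial DNA and is also in this list, rose by 0.56 ± 0.07. Nuclear genes of complex I were mostly not called (19 of 37), and 16 rose and 2 fell.

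**Figure D4:**
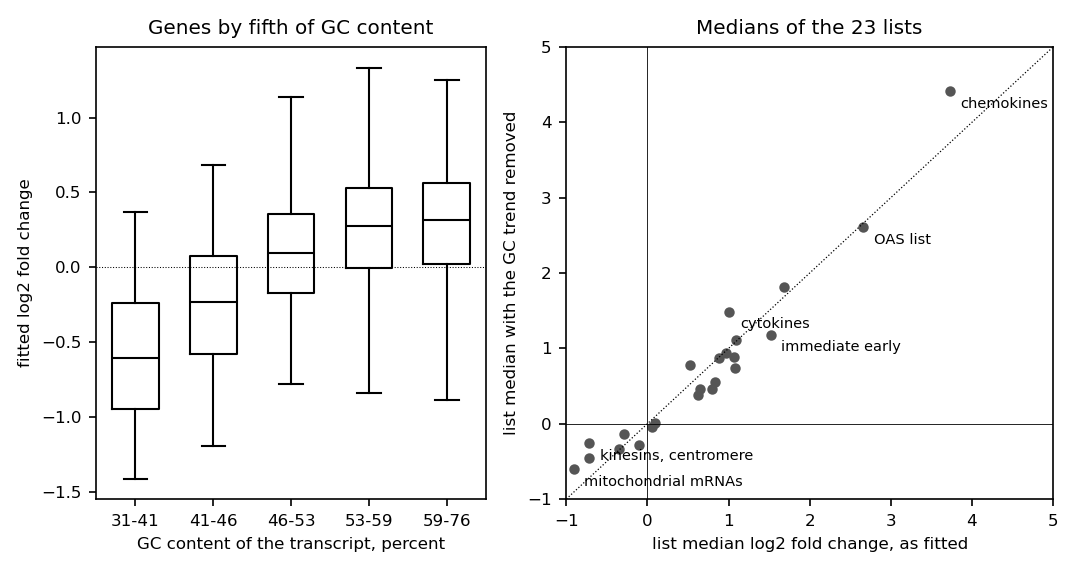
Left, fitted log2 fold change of genes in 5 equal classes of transcript GC content (boxes, quartiles and median; whiskers, 5th to 95th percentile). Right, the median of each of 23 gene lists as fitted against its median with the GC trend removed, the dotted line marking equality. The median rises from -0.61 in the lowest class to 0.31 in the highest; list medians lie along the line, with those of chemokines, cytokines, kinesins, mitochondrially encoded mRNAs and DNA repair genes above it, among others.

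Gene families differed in how many members rose and fell. Of 367 tested ZNF genes, largely KRAB zinc finger repressors, 152 fell (41.4% of them, against 27.1% of all genes), 59 rose (16.1%) and 156 were not called. Their median GC content was 44.5%. Of all genes in the class of 41.3 to 46.3% GC, 45.1% fell and 13% rose, so the ZNF shares were near those of genes of like GC content. With the GC trend removed 106 ZNF genes fell and 52 rose, and the family's median went from -0.27 to -0.15. Of 46 ubiquitin-specific proteases 25 fell, among them USP9X (-0.98) and USP1 (-1.04), and 10 rose, and their median went from -0.40 to -0.25 with that trend removed. Of 15 tubulins 11 rose and 1 fell, or 7 and 2 with the GC trend removed. Of 33 clustered histone genes 15 rose and none fell, HIST1H1C by 1.70 and HIST1H2AC by 1.65; the mRNAs of these genes mostly lack a poly(A) tail, and their copies are similar. In the unfolded protein response 18 of 30 genes rose and 4 fell, with PPP1R15A higher by 2.34 ± 0.08 and XBP1 by 1.79. Among p53 targets and death regulators 18 of 37 rose, such as PMAIP1 (NOXA) by 2.53 (3.20 with the GC trend removed), and 12 fell, such as CASP1 by -1.62, the number that fell being 6 with the GC trend removed. The reference genes ACTB, GAPDH and TBP rose by 1.24 ± 0.04, 0.32 ± 0.05 and 0.30 ± 0.10. GAPDH was at -0.01 with the GC trend removed (adjusted p = 0.81), and TBP lost its call without GFP replicate 1 or TFAP2β replicate 3.

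Markers of other cell types were low, apart from CD68. Of 8 fibroblast markers only COL1A1 passed the filter on counts, and the list's summed level was 2.61 to 3.68 CPM with GFP and 5.34 to 6.56 CPM with TFAP2β. PDGFRA and THY1 had no count in any of the 6 libraries. The 6 leukocyte markers summed to 69.5 to 73.7 CPM and 81.7 to 102 CPM, nearly all of it CD68, a lysosomal protein also made by epithelial cells. PTPRC, which defines leukocytes, had no count in either group. The 5 melanocyte and neural crest markers summed to 10.3 to 12.9 CPM with GFP and 8.35 to 9.53 CPM with TFAP2β, most of it MITF and PMEL, neither of which was called. The 4 endothelial markers summed to at most 1.8 CPM and the 4 neural markers to at most 1.16 CPM. The source of the chemokine and interferon RNA was not tested.

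The droplet-deficient forms were set beside the wild type for 12 of these genes. TFAP2B RNA was higher in them, at 702 ± 25.9 CPM for Mut_IDR3 and 704 ± 62.8 CPM for ΔIDR3 against 280 ± 45.6 CPM for the wild type. These comparisons share the wild-type libraries with the main one. The form of the protein and its RNA level cannot be told apart in these differences. Wild type differed from Mut_IDR3 in 44.1% of genes tested and from ΔIDR3 in 52.3%. CCL5 was at 0.716 ± 0.29 and 0.574 ± 0.14 CPM in the 2 mutants, log2 differences of 10.15 ± 0.14 and 10.51 ± 0.14 in favour of the wild type. IFNL1 had no count in either mutant, OASL was at 9.41 ± 1.31 and 6.94 ± 0.268 CPM, and IFIT1 at 7.21 ± 0.0556 and 7.32 ± 0.395 CPM. PLAUR was at 35.1 ± 1.79 and 35.1 ± 1.58 CPM beside 33.2 ± 3 with GFP, and wild type was above both mutants by 2.97 ± 0.07 and 2.98 ± 0.07. KRT14 was at 56.2 ± 2.66 and 46.6 ± 1.65 CPM, below the GFP libraries, and the wild type was above them by 3.84 ± 0.07 and 4.11 ± 0.07.

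Among genes that fell with the wild type, the mutants lay between it and GFP for some and not for others. SOX2 was at 8.12 ± 0.449 CPM with Mut_IDR3, above its GFP level, and at 1.27 ± 0.554 CPM with ΔIDR3, and the wild type was lower by -6.20 ± 0.36 and -3.53 ± 0.38. MECOM was at 13.1 ± 1.39 and 19.5 ± 2.94 CPM, between GFP and the wild type, and the wild type was lower by -1.03 ± 0.13 (adjusted p = 1.3e-05) and -1.61 ± 0.12. LOXL4 was at 11.8 ± 1.5 and 7.45 ± 0.708 CPM and GJA1 at 30.4 ± 1.09 and 36.5 ± 2.01 CPM. MT-CYB was at 6452 ± 432 and 6256 ± 69.6 CPM, beside a GFP mean of 6408 CPM. In all 12 genes the test called the wild type different from each mutant (edgeR's quasi-likelihood test, adjusted over all genes). The 12 were picked among genes called between wild type and GFP, and the comparisons share the wild-type libraries. The count therefore follows in part from that choice, and no conclusion is drawn from it.

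**Figure D5:**
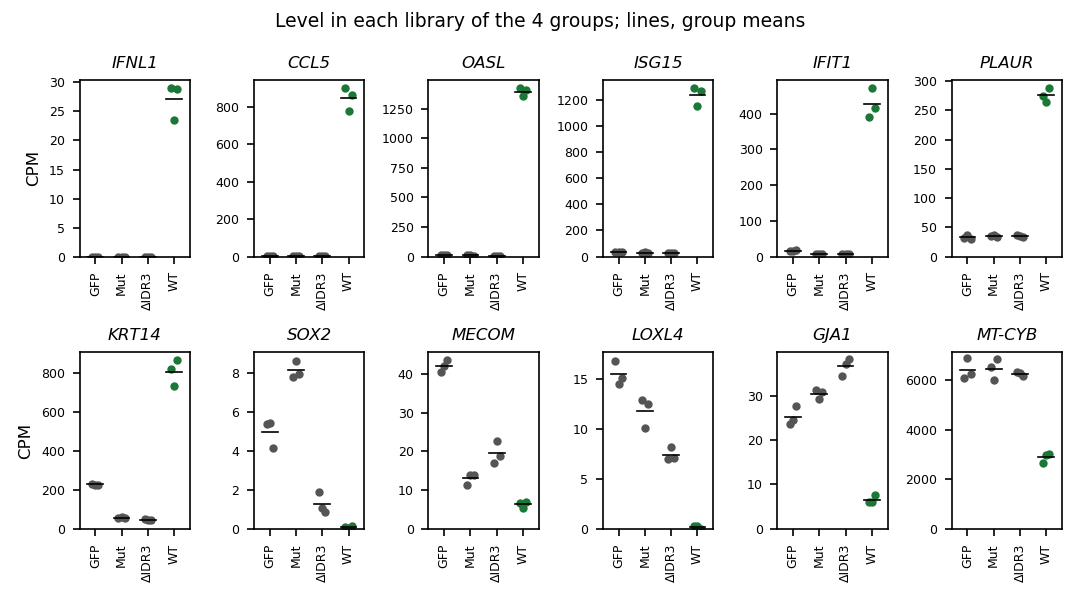
Level in CPM of 12 genes in the 3 libraries of each group (points; lines, means): GFP, GFP-TFAP2β-Mut_IDR3 (Mut), GFP-TFAP2β-ΔIDR3 and wild-type GFP-TFAP2β (WT). The wild-type libraries lie above all others in the first 7 panels and below all others in the last 5.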

How the data were processed

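RNA-seq libraries from 12 KYSE150 samples were compared through 1 deposited table of raw counts per gene. Per the submitters' processing notes, the authors used Trim Galore, HISAT2, StringTie and the build GRCh38 (hg38); their versions and the counting settings are not given in the sources used here. The library kit and total RNA input are per the labels. Whether counting used strand is not stated, so overlapping genes on opposite strands cannot be told apart.

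From the counts, edgeR 4.0.16 (R 4.3.3) fitted all 12 libraries with group as the only term, TMM scaling and filterByExpr, leaving 14792 of 24302 features (2068 of the 14792 are numbered new genes without a gene name). The quasi-likelihood test with 8 residual degrees of freedom gave the contrast, adjusted by Benjamini-Hochberg over all genes tested. CPM are on TMM-scaled library totals. The depth of 31883826 to 43464956 counts a library in the 6 libraries compared sets the counting error; intervals and floors cover that error only. GC content and length are those of the longest protein-coding transcript in GENCODE v29 (GRCh38), and the GC trend was removed in 20 bins. The script was tested on simulated counts for this comparison with 14792 genes, where edgeR called 64% of 1.5-fold, 80% of 2-fold and 92% of 4-fold rises, and 8 unchanged genes. Those counts held 50 changed genes at each fold and no GC trend, so the 8 calls do not carry over to these libraries. In a second simulation a GC trend was put into the TFAP2β libraries with no gene changed. There 4423 genes were called, and 3 after the trend was removed. The slope of that trend was set and not fitted to these libraries.

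Genes were named by rule: TFAP2B; the 20 largest rises and falls among called genes whose higher group reached 5 CPM, with non-overlapping libraries and an established symbol; the 15 largest with at least 100 CPM; members of the lists (for lists of over 20 and families, up to 6 a direction with the lowest adjusted p); markers and 3 reference genes. The comparison, members and lists were chosen with earlier results of these data known. The alternatives tried were scaling by median ratios or upper quartiles, no count filter, a CPM filter, DESeq2 1.42.0, limma-voom (limma 3.58.1), the 6 libraries alone, a replicate block, the GC trend removed, both together, no mitochondrial mRNAs, and each library left out. Promoters are from RefSeq (GRCh38.p14), matched by symbol. Some results are not reported here.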

Additional observations from a re-analysis of the deposited data

How the results depend on the processing

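Across 17 alternative fits, 4148 of 4239 values of 250 named genes kept their direction and their side of the threshold, 70 fell short of it, 3 passed it and 18 changed sign. All 18 changes of sign arose with the GC trend removed, alone or with the replicate block. The log2 fold changes were then 0.19 for PARP9, 0.50 for NMI, 0.31 for SP100, 0.24 for BIRC2, -0.30 for IER5L and 0.39 for SPRED1, with and without the block. Those of YEATS4, ITGB1 and GAPDH were 0.0821, 0.0062 and -0.0098 without it and 0.0804, 0.0072 and -0.0097 with it. The cause was not tested. The number of genes at least 2-fold lower fell from 1039 to 585 with the GC trend removed and to 555 with the block as well, and 62% of the 8118 calls were kept with the same sign, 239 being called the other way. The other scalings, filters and tools kept 96.4 to 99.2% of the calls with their sign. The 6 libraries alone kept 92.1%, and the fit without mitochondrial mRNAs 99.4%. With 1 library left out 88.3 to 93.7% were kept, and none of these fits turned a call.

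The replicate numbers did not pair the samples: deviations of same-numbered libraries correlated at 0.02, -0.04 and -0.01. With the number as a block 7932 genes were called, 3983 higher and 3949 lower, against 8118. Leaving out 1 library gave 3715 to 4206 genes higher and 3605 to 4123 lower, 585 to 645 at least 2-fold higher and 837 to 1223 at least 2-fold lower, and a TFAP2B log2 fold change of 10.65 to 12.33. Depth limits the genes that are listed at or near no count in 1 group, such as IFNB1, CFI and CFB, whose fold is known only as a bound or within wide error.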

Other observations

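Several further gene groups are described here by the same test of the TFAP2β against the GFP libraries. Of 13 tested KLF factors, zinc finger regulators of epithelial growth and differentiation, 7 rose and 2 fell. KLF4, a factor of squamous differentiation, went from 11.4, 8.38 and 10.7 CPM to 82.8, 94.3 and 81 CPM (3.08 ± 0.11, edgeR adjusted p = 1.48e-11). KLF2 and KLF6 rose by 2.11 ± 0.27 and 1.19 ± 0.08. The 2 that fell, KLF5 and KLF7, did so by -0.24 and -0.44. KLF5 lost its call without GFP replicate 2 (adjusted p = 0.0617), and KLF7 lost its call with the GC trend removed (0.0945). Of 13 tested mesenchymal genes and factors of epithelial to mesenchymal transition 10 rose and none fell, with a median of 0.56. With the GC trend removed 7 rose and 1 fell, and the median was 0.37. FN1, the matrix protein fibronectin, went from 28.8, 26.9 and 27.6 CPM to 98.6, 90.3 and 113 CPM (1.86 ± 0.08). THBS1, CD44 and the receptor kinase AXL rose by 1.16 ± 0.04, 0.87 ± 0.04 and 0.86 ± 0.04, while VIM (vimentin) rose by 1.24 ± 0.24 but only to 5.62, 6.99 and 5.02 CPM. Of 26 genes of the TGF-β and BMP pathway 8 rose and 8 fell (30.8% each). These shares were near those of all genes tested (27.7% and 27.1%). TGFB1 and GDF15 rose by 0.94 ± 0.07 and 1.59 ± 0.10, whereas the ligand BMP7 fell from 48.3, 50.3 and 49.7 CPM to 17.4, 15.2 and 18.8 CPM (-1.53 ± 0.09) and the BMP target ID1 by -1.03 ± 0.11. In the Notch pathway 7 of 18 rose and 5 fell, and with the GC trend removed 2 rose and 7 fell. The ligand JAG2 went from 134, 125 and 121 CPM to 46.5, 44.9 and 57.2 CPM (-1.35 ± 0.08), the receptor NOTCH3 and the coactivator MAML2 fell by -1.30 ± 0.14 and -2.14 ± 0.26, and the receptor NOTCH2 rose by 0.54 ± 0.06.

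Genes of iron handling and ferroptosis defence moved in both directions. Of 21 tested, 8 rose and 10 fell, or 9 and 7 with the GC trend removed, when the median went from -0.21 to -0.03. The iron storage chains FTH1 and FTL rose by 0.55 ± 0.04 and 0.56 ± 0.04, and HMOX1, which frees iron from heme, by 1.14 ± 0.15. The importer TFRC fell, as given above, and so did IREB2, an RNA-binding regulator of both (-1.16 ± 0.07, and -0.51 with the GC trend removed). SLC7A11, the cystine importer, went from 33.7, 34.9 and 39.1 CPM to 9.86, 11.7 and 14.9 CPM (-1.56 ± 0.16, and -0.88 with the GC trend removed), and its activator NFE2L2 (NRF2) fell by -0.93 ± 0.07. Of 34 genes of hypoxia and glycolysis 21 rose and 7 fell, or 12 and 4 with the GC trend removed, and their median of 0.31 was then 0.12. The glucose transporter SLC2A3 went from 28.1, 33.5 and 33.7 CPM to 117, 117 and 112 CPM (1.86 ± 0.07), SLC2A1 and NDRG1 rose by 0.62 ± 0.05 and 1.13 ± 0.06, and the carbonic anhydrase CA9 fell by -0.90 ± 0.16. Among 22 heat shock proteins 10 rose and 9 fell, or 10 and 5 with the GC trend removed, when the median turned from -0.17 to 0.13. The chaperones HSP90AA1 and HSPD1 fell by -0.96 ± 0.11 and -0.67 ± 0.06, and HSPB8 and its partner BAG3 rose by 1.03 ± 0.09 and 0.71 ± 0.05. Of 24 genes of replication licensing and the E2F factors 6 rose and 11 fell, against 4 and 16 with the GC trend removed. The helicase subunit MCM6 went from 141, 147 and 150 CPM to 82.8, 87 and 76.6 CPM (-0.83 ± 0.06), the pocket protein RBL1 fell by -1.45 ± 0.11, and E2F7, a repressor among the E2F factors, rose by 0.47 ± 0.07. Of 45 enzymes of DNA methylation and histone modification 8 rose and 18 fell, or 3 and 18 with the GC trend removed, when the median went from 0.0047 to -0.18. The histone methyltransferase SETD2 fell by -0.78 ± 0.11 and the demethylase KDM6A rose from 55.6, 59.9 and 61 CPM to 95.7, 111 and 110 CPM (0.84 ± 0.07). The death receptor TNFRSF10B went from 70.9, 63.6 and 69.7 CPM to 134, 128 and 136 CPM (0.97 ± 0.05). The basement membrane collagens COL17A1 and COL7A1 moved apart, by 0.74 ± 0.06 and -0.74 ± 0.15.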
